A study of Mus musculus with 81 samples.

Results

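This account covers the response of H3.3-deficient macrophages to an antibody against the type I interferon receptor, read by RNA-seq. Its members were chosen by their labels, as the libraries of the antibody experiment that are cKO and carry either the entry "IFNAR1 antibody" or "no antibody". They are 6 libraries, 3 in each arm, out of 18 in the antibody experiment and 81 in the whole series. The cells were bone marrow-derived macrophages (BMDMs), grown from the marrow of C57BL/6 mice aged 8 to 10 weeks in medium conditioned by L929 cells, which supplies the macrophage growth factor M-CSF. The cKO mice carry floxed alleles of H3f3a and H3f3b, the pair of genes that both encode the replacement histone H3.3. They also carry LysM-cre, in which the recombinase is expressed from the lysozyme gene Lyz2. The paper gives the floxed alleles and LysM-cre as homozygous in cKO mice. Both arms share these alleles, and deletion takes place in cells that have switched Lyz2 on, so it is a deletion of the myeloid lineage and not of the whole animal. The antibody was the mouse monoclonal IgG1 MAR1-5A3, added at 10 µg per mL from day 0 of culture and renewed every 12 h, and the cells were lysed on day 6. The no antibody arm received no immunoglobulin. The experiment also holds a cKO arm with an IgG1 control antibody and the same 3 arms of WT BMDMs, which carry the floxed alleles without cre. The labels call the replicates biological but do not tie them to single animals, so p-values measure the spread between these cultures.

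Type I interferons, which include interferon-β and the many interferon-α proteins, bind a receptor made of IFNAR1 and IFNAR2. The kinases JAK1 and TYK2 then phosphorylate STAT2, which joins IRF9 in the factor ISGF3, and ISGF3 binds the interferon-stimulated response element in the promoters of interferon-stimulated genes. Many of these genes encode antiviral enzymes and sensors, and STAT2, IRF9 and IRF7 are themselves among them, so that the pathway raises its own components. Macrophages in culture keep a low level of this signalling without infection, and an antibody to IFNAR1 blocks binding of the ligand.

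Counts on genes ranged from 11809833 to 17686952 in the no antibody arm and from 9856082 to 17600897 in the IFNAR1 antibody arm. Levels are given as CPM, the counts of a gene relative to all counts on genes of its library, with library sizes corrected by TMM (which sets the typical gene equal between libraries), and each list of 3 values follows replicates 1, 2 and 3. H3f3a had 4.0, 5.69 and 7.85 CPM without antibody and 11, 4.72 and 5.43 CPM with IFNAR1 antibody, against 33.6 to 55.4 CPM in WT cells without antibody. H3f3b had 51.8, 63.0 and 31.8 CPM and then 40.1, 48.9 and 16.7 CPM, against 325 to 468 CPM in WT cells without antibody. The paper describes its deletion as variable, complete in some cKO samples and partial in others. Lyz2, at 11.9 to 19.3 CPM in all 6 libraries, was far under the 5282 to 11375 CPM of WT cells without antibody. All 6 libraries thus carried less RNA of H3f3a, H3f3b and Lyz2 than WT cells without antibody, and the arms overlapped in each gene. The summed level of 10 macrophage markers was 4750 to 5313 CPM without antibody and 5022 to 5676 CPM with it. Markers of other cells were scarce, with 11 of 12 neutrophil markers, 8 of 9 B cell markers and 7 of 9 T and NK cell markers under 1 CPM in all 6 libraries and the hemoglobin genes at 0. The sum of the neutrophil list, which came almost wholly from Mmp8, was 74.9 to 97.4 CPM without antibody and 115 to 140.1 CPM with it. The sum of the dendritic cell list was 131 to 197 CPM and 71.8 to 140.2 CPM. In that list Ccr7 and Cd209a were at 0, and 6 of 8 genes were under 1 CPM in all 6 libraries. This sum came almost wholly from Bst2, with 196, 166 and 128 CPM and then 137, 81.4 and 70.7 CPM. Bst2 is also in the list of antiviral effectors used below. The part of neutrophils or dendritic cells in the results was not tested.

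One of the 6 libraries stood apart from its replicates. Of the 9044 genes whose log2 CPM averaged 3 or more, 1281 and 1371 differed by more than 2-fold between IFNAR1 antibody replicate 1 and replicates 2 and 3, while 21 did so between replicates 2 and 3 and 23 to 85 between any pair without antibody. The genes that set it apart were chosen after their values were seen. Insig1, a sterol-responsive gene, had 447 CPM in replicate 1 against 44.8 and 39.0 CPM in the others, and Egr1, an immediate early gene, had 1079 against 211 and 152 CPM. Hmox1, which encodes heme oxygenase, had 206 CPM against 1185 and 1409 CPM, and Trem1 had 1.46 CPM against 81.2 and 84.0 CPM. The share of counts on mitochondrial genes was 2.16% in replicate 1 and 1.2% to 1.23% in the other 2. In WT cells, Insig1 also varied within arms, with 162 ± 119 CPM (SD, n = 3) without antibody and 357 ± 295 CPM (SD, n = 3) with IFNAR1 antibody. Results are therefore given with this library and, where it matters, without it.

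The quasi-likelihood test of edgeR was run in a model of all 18 libraries, with Benjamini-Hochberg adjustment over 17191 genes. At an adjusted p under 0.05, 24 genes fell with IFNAR1 antibody, which is 0.140% of those tested, and 1 gene rose, which is 0.00582%. The 24 genes kept 5.75% to 41.7% of their mean level without antibody, with a median of 20.8%, and log2 fold changes from -1.26 to -4.10. In none of them did the arms overlap, whereas over all genes tested the 3 IFNAR1 antibody libraries lay below the 3 libraries without antibody in 6.77% and above them in 5.92%. After TMM scaling, the median log2 fold change of all genes was 0.01. Of the 24 genes, 16 were in lists of interferon-stimulated genes and 8 were in none of the lists used. The 8 were Rnf213, Treml2, Pde7b, Trim30c, Trim30d, Pxylp1, Ifit1bl2 and F830016B08Rik. Of the called genes described with values, Irf9, Herc6, Trim30a, Pde7b and Apol9b lay outside the rule for named genes and were chosen after their values were seen. Because the RNA is from whole cultures, fewer cells that express a gene and less of its RNA per cell cannot be told apart.

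The number of calls depended on the libraries and the model. Libraries with the same replicate number deviated together in these arms, and a block for the replicate number gave 44 genes that fell (0.256%) and 2 that rose (0.0116%). Of the 24 genes, 22 were among the 44. Without IFNAR1 antibody replicate 1, 19 of 17805 genes fell (0.107%) and none rose, and 12 of the 24 were among the 19. These 12 were Slfn5, Oas1a, Oas2, Rtp4, Stat2, Oas1g, Rnf213, Oasl1, Oasl2, Ifi44, Ifi204 and Pde7b. Without no antibody replicate 1 or 2, or without IFNAR1 antibody replicate 2, no gene was called (555, 499 and 1301 genes at an unadjusted p under 0.05), and without IFNAR1 antibody replicate 3 there were 2 lower and 2 higher calls. A model of the 6 libraries alone called no gene in edgeR (696 at an unadjusted p under 0.05), where the spread is estimated from these libraries only. DESeq2, on all 18 libraries, called 72 genes lower and 8 higher.

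**Figure D1:**
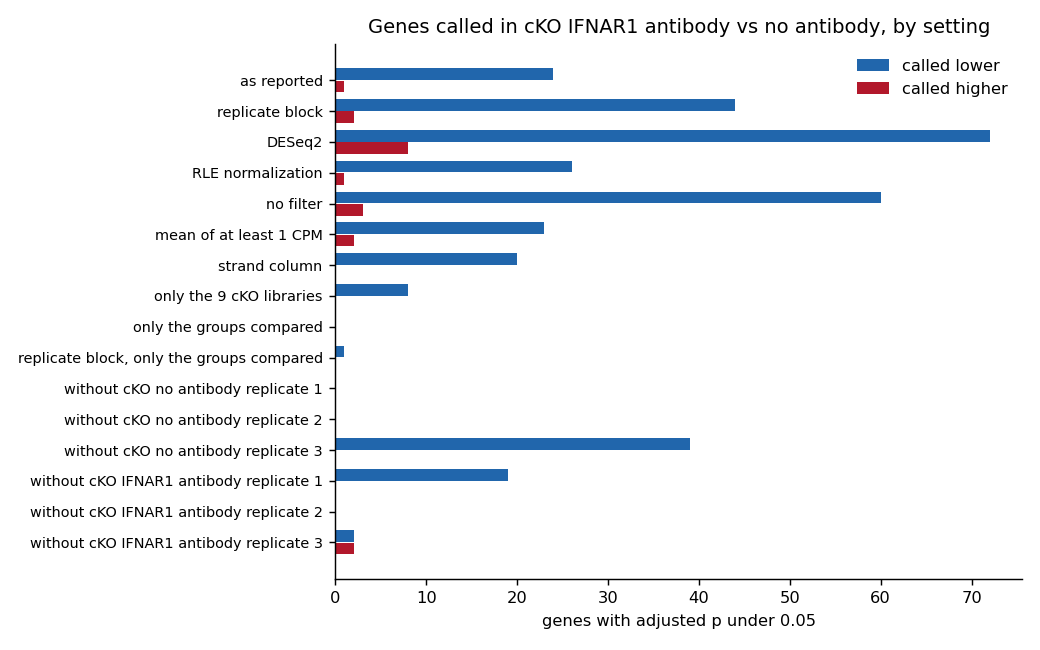
Number of genes with an adjusted p under 0.05 in cKO cells with IFNAR1 antibody against none (x axis, bars for lower and higher genes), under each setting of the analysis (y axis). The model as reported called 24 lower genes, and the settings ran from 0 to 72 lower genes, with no more than 8 higher genes in any.

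Neither receptor gene passed the test. Ifnar1, which encodes the chain the antibody binds, had 165, 178 and 178 CPM without antibody and 249.5, 198 and 197 CPM with it. The arms did not overlap, with the antibody arm higher, but the log2 fold change of 0.31 ± 0.12 (SE) did not pass the test (adjusted p = 0.915). Ifnar2 had 75.3, 65.9 and 63.6 CPM and then 88.5, 71.9 and 62.4 CPM, so that the arms overlapped. Of 11 receptor, kinase and feedback genes tested, none was called, and their median log2 fold change was 0.12. The ligands were hardly present, and 1 of 21 (Ifnk) had enough counts to be tested. Ifnb1, the gene of interferon-β, had 0.0533, 0 and 0 CPM without antibody and 0.317, 0.0786 and 0.0953 CPM with it.

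Of the genes of ISGF3, Stat2 and Irf9 fell. Stat2 had 154, 122 and 88.4 CPM without antibody and 48.8, 37.9 and 37.8 CPM with it. The arms were well apart, at a log2 fold change of -1.55 ± 0.22 (SE, adjusted p = 0.0103). Irf9, which gives the complex its DNA binding, had 88.4, 76.7 and 62.4 CPM and then 35.8, 30.1 and 27.2 CPM, a log2 fold change of -1.29 ± 0.23 (SE, adjusted p = 0.0427, and 0.0743 without IFNAR1 antibody replicate 1). Irf7, the factor that amplifies interferon-α production, had 213, 113 and 55.6 CPM and then 55.0, 17.9 and 12.3 CPM. The lowest library without antibody and the highest with it nearly met, and it was not called without the block but was with it (log2 change -2.16 ± 0.58 (SE), adjusted p = 0.362 and 0.00409 with the block). Of the 10 STAT and IRF genes tested, 2 fell (20%, against 0.140% of all genes tested), and the median log2 fold change was -0.21. Irf8 and Stat3, which work mainly outside ISGF3, were among those not called.

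The OAS family had 5 of the 24 calls. Its genes encode 2′-5′ oligoadenylate synthetases, enzymes that sense double-stranded RNA and switch on the nuclease RNase L, and the related OASL proteins. Oas1a had 66.8, 55.9 and 42.9 CPM without antibody and 20.04, 11.6 and 10.9 CPM with it (log2 change -1.96 ± 0.27, SE, adjusted p = 0.0103). Oas2 went from 99.4, 86.5 and 62.0 CPM to 27.1, 8.18 and 6.96 CPM (-2.54 ± 0.46, SE, adjusted p = 0.0427). The arms were apart in both, and in both the antibody library with the most RNA was replicate 1. Without that library the log2 fold changes were -2.30 for Oas1a and -3.45 for Oas2, each with an adjusted p of 0.00302. Oasl2 had 232, 167 and 89.5 CPM and then 27.8, 13.1 and 13.6 CPM (-3.16 ± 0.53, SE, adjusted p = 0.0364). Oasl1 had 52.3, 34.3 and 19.4 CPM and then 9.07, 5.11 and 7.43 CPM (-2.29 ± 0.35, SE, adjusted p = 0.028). These 4 genes and Oas1g, which kept 18.1% of its level without antibody, passed the test. Oas3, the member with the longest protein, had 390.0, 246 and 172 CPM and then 103, 25.1 and 24.3 CPM, and was called with the block (adjusted p = 0.00395) and without IFNAR1 antibody replicate 1 (0.00302) but not in the model as reported (0.0838). Oas1a and Oas1g lie side by side and are alike in sequence, so the division of reads between them is uncertain.

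Ifi44 and Rtp4 fell the most among the well-expressed genes. Ifi44, an interferon-induced protein that restrains viral replication, had 62.0, 35.1 and 17.6 CPM without antibody and 3.17, 1.42 and 2.0 CPM with it. That left 5.75% of the mean, with a log2 fold change of -4.10 ± 0.64 (SE, adjusted p = 0.0282). Rtp4, an interferon-induced transmembrane protein transporter, had 99.9, 65.7 and 37.1 CPM and then 10.9, 2.67 and 3.05 CPM (-3.58 ± 0.60, SE, adjusted p = 0.0364). In both genes even the lowest library without antibody had over 3 times the level of the highest library with it. Both were called without IFNAR1 antibody replicate 1 as well (adjusted p = 0.0371 and 0.00961). Apol9b, a low gene of the apolipoprotein L family, had 5.71, 2.24 and 1.40 CPM and then 0.190, 0.236 and 0.191 CPM (-3.89 ± 0.62, SE, adjusted p = 0.0364, and 0.107 without IFNAR1 antibody replicate 1).

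**Figure D2:**
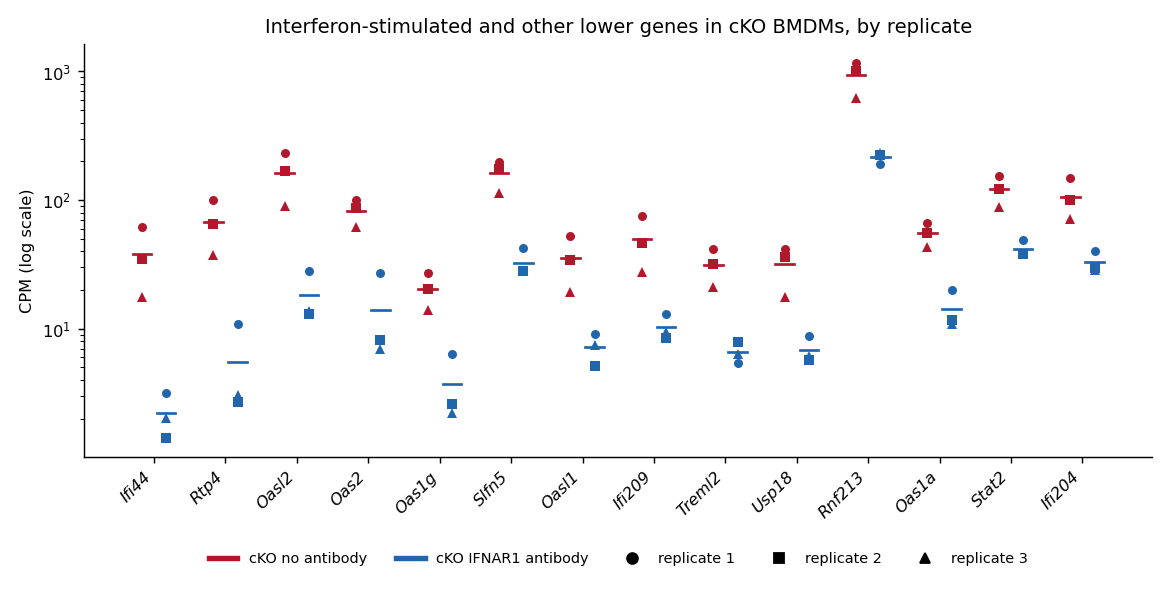
Level in CPM (y axis, log scale) of the named lower genes in the 3 cKO libraries without antibody and the 3 with IFNAR1 antibody (each point is 1 library, with replicates told apart by their marker, and lines are means of 3). Each gene's antibody points lie below its points without antibody, and replicate 1 was the highest of the antibody arm in 15 of the 24 called genes.

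The promoters of these genes were searched for the core of the interferon-stimulated response element. The core was written as GAAA, 2 free bases and GAAA on either strand, and was sought from 250 bases before to 50 bases after each start in RefSeq on the mouse build GRCm38.p6. It was held by 1131 of 32851 promoters (3.44%), and by 8 of the 18 called lower genes with an entry (44.4%). The 8 were Slfn5, Stat2, Oas1a, Oas1g, Trim30a, Trim30d, Apol9b and Ifit1bl2. It was as frequent among the interferon list genes that were not called, 38 of 87 (43.7%), so its presence did not separate called from uncalled genes. Shown, as examples, are the stretches of the 4 genes that the rule for named genes takes among the 8, Trim30a, Trim30d, Apol9b and Ifit1bl2 being outside it. They are printed on the strand of the gene, with the core in capitals. That of Slfn5 is chr11:82951927-82951976 (plus strand), that of Stat2 is chr10:128270256-128270305 (plus strand, core on the opposite strand), that of Oas1a is chr5:120907526-120907559 (minus strand) and that of Oas1g is chr5:120887614-120887645 (minus strand).
Slfn5: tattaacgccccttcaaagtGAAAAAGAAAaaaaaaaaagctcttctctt
Stat2: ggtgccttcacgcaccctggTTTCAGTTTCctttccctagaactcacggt
Oas1a: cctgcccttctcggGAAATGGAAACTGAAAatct
Oas1g: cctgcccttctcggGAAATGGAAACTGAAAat
The core began 155 bases before the start in Slfn5, 222 in Stat2, 14 in Oas1a and 12 in Oas1g. Oas1a and Oas1g each hold 2 overlapping cores in the same run of letters. A match is a description of letters and not a measured binding site, and the RefSeq start need not be the one used in these cells.

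Slfn5, a Schlafen gene that encodes a nuclear protein, had 198, 174 and 114 CPM without antibody and 42.1, 27.9 and 27.9 CPM with it. The arms were far apart, and the log2 fold change of -2.31 ± 0.29 (SE, adjusted p = 0.0103) held without IFNAR1 antibody replicate 1 (-2.54, adjusted p = 0.00496). It was the single called gene among 7 Schlafen genes tested (14.3%, against 0.140% of all genes tested), and all 7 log2 fold changes were below 0. With the block 2 were called, against 0.256% of all genes tested. In 5 of the 7 the antibody libraries were all below those without, against 6.77% of all genes tested. Rnf213, a very large ubiquitin ligase that coats microbes and lipid droplets, was the most expressed of the called genes. Its levels were 1169, 1009 and 624 CPM without antibody and 190.0, 225 and 231 CPM with it (-2.12 ± 0.28, SE, adjusted p = 0.0103). Here replicate 1 of the antibody arm was not the highest, and the adjusted p without it was 0.028.

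In the ISG15 pathway, which attaches a ubiquitin-like protein to others, Usp18 and Herc6 fell. Usp18, which removes ISG15 and also restrains signalling at IFNAR2, had 41.6, 36.4 and 17.7 CPM and then 8.75, 5.66 and 6.10 CPM (log2 change -2.22 ± 0.40, SE, adjusted p = 0.0427). Herc6, the ligase of the mouse, had 33.3, 28.4 and 18.1 CPM and then 9.96, 11.6 and 10.01 CPM (-1.34 ± 0.24, SE, adjusted p = 0.0427). The arms did not overlap in either, and neither was called without IFNAR1 antibody replicate 1 (adjusted p = 0.0743 and 0.113). Isg15 itself, chosen after its values were seen, had 34.1, 20.4 and 8.76 CPM and then 7.42, 6.05 and 7.15 CPM. Its arms did not overlap either, but it was not called (adjusted p = 0.234). The median over the 6 genes of the list was -1.15 (log2).

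Among the Ifi200 genes, which encode DNA-binding proteins with pyrin or HIN domains, Ifi204 and Ifi209 fell. Ifi204 had 148, 99.6 and 71.8 CPM without antibody and 40.5, 29.6 and 28.5 CPM with it (log2 change -1.69 ± 0.29, SE, adjusted p = 0.0364, and 0.0426 without IFNAR1 antibody replicate 1). Ifi209 had 75.8, 46.1 and 27.6 CPM and then 13, 8.49 and 9.44 CPM (-2.27 ± 0.41, SE, adjusted p = 0.0427). The arms were apart in both. Of 9 genes tested, 2 fell (22.2%, against 0.140% of all genes tested), and the median log2 fold change was -1.69. With the block 3 fell, the third being Ifi213, against 0.256% of all genes tested. Genes of this family, like the 3 called Trim30 genes, lie in clusters of near copies, and their reads may be divided unevenly. Trim30a, which restrains Toll-like receptor signalling, had 184, 157 and 104 CPM and then 54.0, 49.5 and 47.8 CPM (-1.56 ± 0.28, SE, adjusted p = 0.0427).

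Treml2, Pde7b and Pxylp1 were among the called genes outside the interferon lists. Trim30c, Trim30d, Ifit1bl2 and F830016B08Rik, also outside them, are not described with values. Treml2, a receptor of the TREM family on myeloid cells, had 41.3, 31.6 and 21.2 CPM without antibody and 5.39, 7.94 and 6.39 CPM with it (log2 change -2.26 ± 0.40, SE, adjusted p = 0.0427, and 0.135 without IFNAR1 antibody replicate 1). Pde7b, a phosphodiesterase that breaks down cyclic AMP, had 69.7, 40.8 and 38.8 CPM and then 24.9, 17.6 and 19.7 CPM (-1.26 ± 0.23, SE, adjusted p = 0.0427). Pde7b was called without IFNAR1 antibody replicate 1 as well (adjusted p = 0.0461). Pxylp1, a xylose phosphatase of proteoglycan synthesis, had 3.25, 4.16 and 3.51 CPM and then 1.2, 1.73 and 1.33 CPM (-1.35 ± 0.22, SE, adjusted p = 0.034). The arms did not overlap in any of the 3.

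Some well-known interferon-stimulated genes behaved otherwise, and were picked for description after their values were seen. Rsad2, which encodes viperin, had 189, 137 and 64.1 CPM without antibody and 53.5, 61.1 and 79.4 CPM with it, so that the arms overlapped (adjusted p = 0.72). Ifit1, which binds RNA that lacks the cap methylation of the host, had 25.1, 22.8 and 9.89 CPM and then 7.42, 10.3 and 12.2 CPM (adjusted p = 0.915). Cmpk2, a mitochondrial nucleotide kinase that lies beside Rsad2, had 71.7, 59.9 and 25.4 CPM and then 13.9, 33.7 and 43.1 CPM. In all 3, replicate 3 was the lowest library without antibody and the highest with antibody, and the latter was above the former. Ifit2, Ifit3 and Cxcl10 overlapped as well, with 56.3%, 32.3% and 92.2% of their mean level left. The order of the libraries without antibody was shared by most of these genes. Replicate 1 was the highest of that arm in 115 of the 127 interferon list genes tested and replicate 3 the lowest in 117, and with antibody replicate 1 was the highest in 92.

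**Figure D3:**
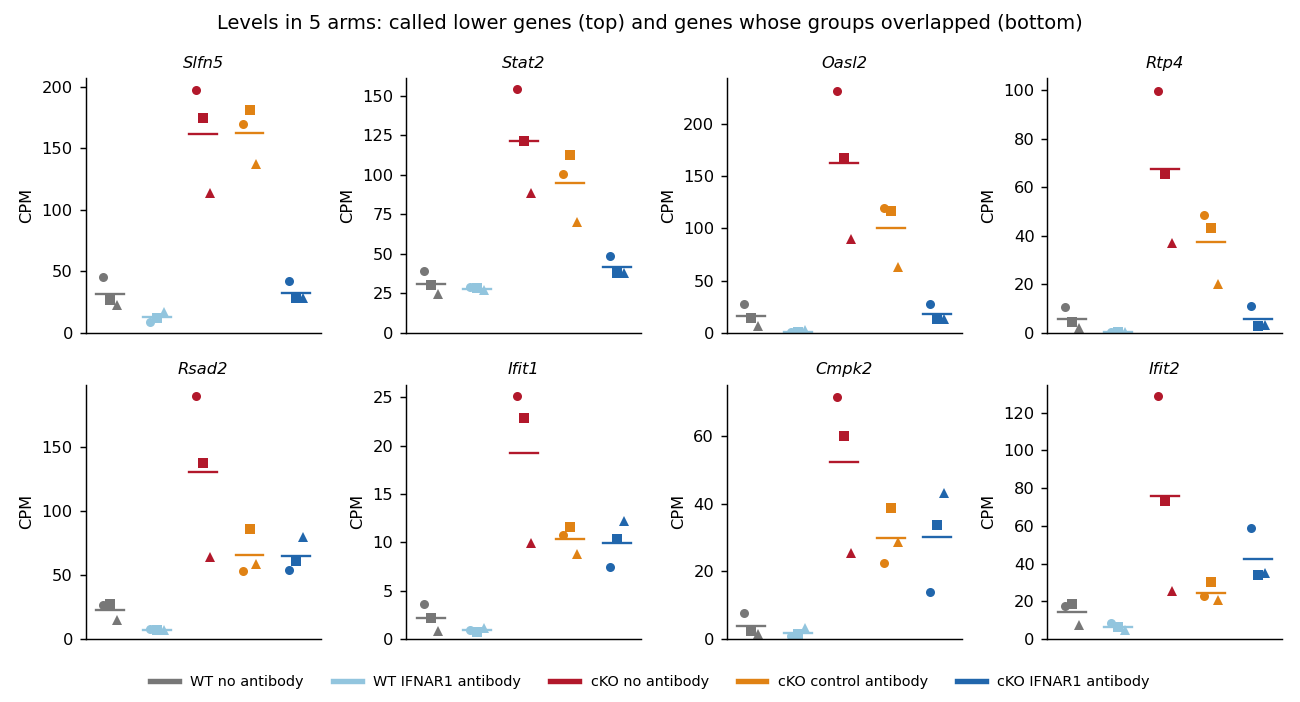
Levels in CPM (y axes, linear from 0) of called lower genes (top row) and of interferon-stimulated genes whose arms overlapped (bottom row) in 5 arms: WT and cKO without antibody and with IFNAR1 antibody, and cKO with control antibody. Points are libraries and lines are means of 3. In the top row the cKO points with IFNAR1 antibody lie under those without antibody, and in the bottom row at least 1 of them lies above replicate 3 without antibody.

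Taken by lists, 113 of the 127 interferon list genes tested (of 135 listed) had log2 fold changes below 0, with a median of -0.88 against 0.01 over all genes. Of the 127, 16 fell (12.6%, against 0.140% of all genes), 27 with the block (against 0.256% of all genes), and none rose. In 60 (47.2%) the antibody libraries were all below those without, and in none were they all above. Over all genes tested these shares were 6.77% and 5.92%. The list of antiviral effectors, 34 tested, had 9 calls, arms apart in 17 and a median of -1.31. The GBP and IRG GTPases, which attack the vacuoles of intracellular microbes, had arms apart in 11 of 15 and a median of -1.39 but no call, and 1 with the block. The PARP and PML body genes had 7 of 11 apart, a median of -0.85 and no call, and 3 with the block, among them Parp14 (266, 233 and 147 CPM to 84.6, 72.6 and 77.2 CPM, adjusted p = 0.0679 and 0.0309 with the block). The nucleic acid sensors had 5 of 13 apart and a median of -0.48. Ifih1 and Ddx60, a cytosolic RNA sensor and its relative, were called with the block but not without it. With the block the adjusted p was 0.019 for Ifih1, which was picked after its values were seen, and 0.0062 for Ddx60.

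The MHC class I and antigen processing genes depended on 1 library. H2-K1, a classical class I heavy chain, had 881, 606 and 513 CPM without antibody and 969, 346 and 335 CPM with it. B2m, the light chain, had 1152, 886 and 746 CPM and then 1322, 379.5 and 384 CPM. In both, replicate 1 of the antibody arm was above all 3 libraries without antibody and the other 2 were below them. The log2 fold change of B2m was -0.42 with all libraries and -1.28 without replicate 1 (adjusted p = 0.915 and 0.211). Over the 22 genes tested, the median was -0.28 with it and -0.70 without it, with no call in either. Ifi27l2a, an interferon-induced gene picked after its values were seen, differed in the same way, with 77.6, 46.7 and 22.1 CPM and then 113, 4.01 and 3.53 CPM. Without replicate 1, the median of all interferon list genes was -1.21.

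**Figure D4:**
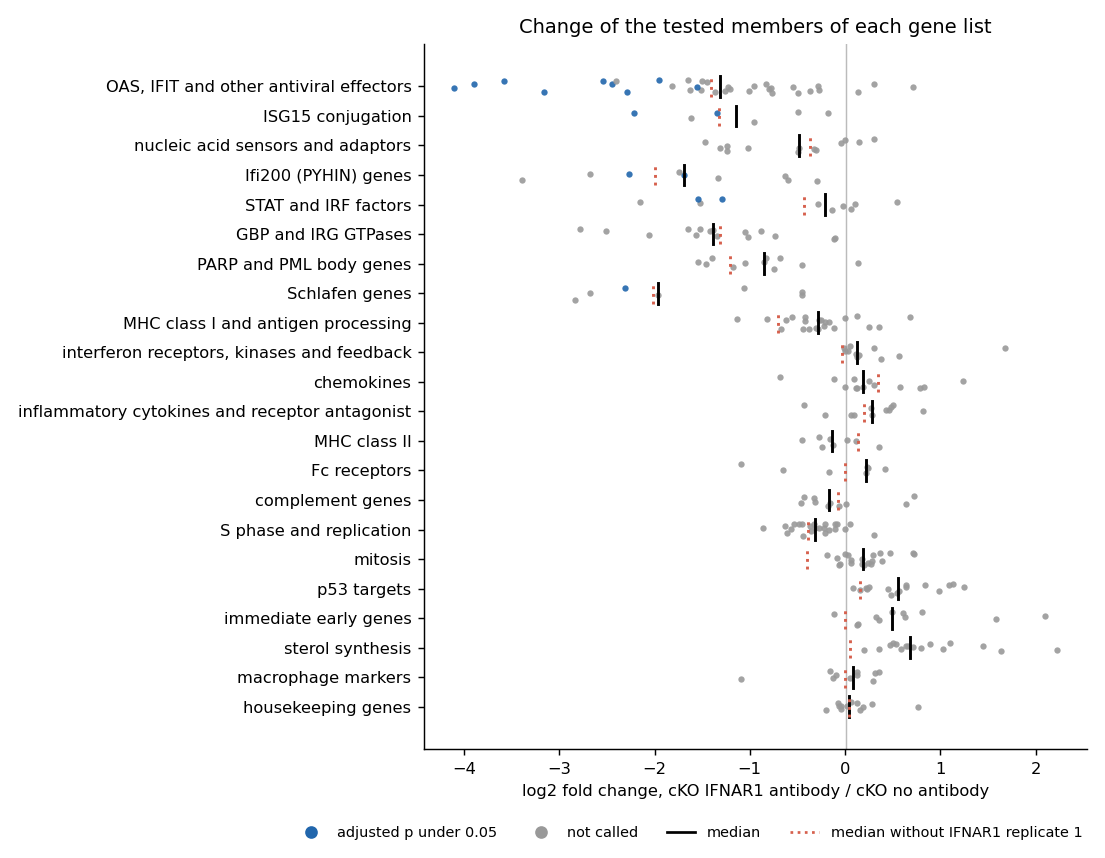
Log2 fold change of each tested member (points) and the median (black line) of the gene lists (y axis) in cKO cells with IFNAR1 antibody over none (x axis), with called genes in blue and the median without IFNAR1 antibody replicate 1 dotted. Medians of the interferon lists lie below 0, from -1.97 for the Schlafen genes to -0.21 for the STAT and IRF genes, and those of the other lists plotted, which leave out the markers of cells other than macrophages and some further lists, run from -0.32 for the S phase genes to 0.68 for the sterol synthesis genes.

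Ighm, the heavy chain of immunoglobulin M, was the only gene that rose, with 0.640, 1.84 and 0.561 CPM without antibody and 16.2, 7.23 and 3.43 CPM with it. It fell outside the rule for named genes, having a low mean level, and was chosen after its values were seen. The arms did not overlap, and Ighm had a log2 fold change of 3.19 ± 0.58 (SE, adjusted p = 0.0427), or 2.45 without IFNAR1 antibody replicate 1 (adjusted p = 0.135). The B cell gene Cd79a stayed under 1 CPM in all 6 libraries, and the sum of the B cell markers was 5.71 to 8.33 CPM without antibody and 2.35 to 8.33 CPM with it. In WT cells Ighm had 12.8 ± 2.33 CPM (SD, n = 3) without antibody.

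The medians of the p53, sterol synthesis and immediate early lists were closer to 0 without the library that stood apart. The p53 targets had a median log2 fold change of 0.56 over 16 genes, and of 0.15 without IFNAR1 antibody replicate 1. All 16 changes were above 0 and none was called. In 8 of the 16 (50%) all 3 antibody libraries lay above all 3 without antibody, against 5.92% of all genes tested. Gdf15, a secreted stress protein, had 266, 229 and 267 CPM and then 1245, 259.9 and 304 CPM. In Gdf15 replicate 1 alone was far above the rest. The sterol synthesis genes had medians of 0.68 and 0.05 with and without that replicate, and the immediate early genes 0.49 and -0.00. Egr2, an early growth response factor, was higher in all 3 antibody libraries, with 9.81, 11.7 and 13.5 CPM and then 48.0, 83.9 and 17.9 CPM, and narrowly missed the threshold (log2 change 2.10 ± 0.40, SE, adjusted p = 0.0545). The 20 mitosis genes had a median of 0.19, or -0.40 without replicate 1, and the 23 S phase genes -0.32 and -0.39, with no call. Mki67, a proliferation marker, overlapped between the arms, with 422, 403 and 267 CPM and then 687, 383 and 259 CPM. Chemokines (13 tested, median 0.19, and 0.34 without replicate 1), inflammatory cytokines (11, 0.29 and 0.20), MHC class II (8, -0.14 and 0.14), Fc receptor (7, 0.22 and 0.00) and complement genes (10, -0.17 and -0.08) had no call. The median of MHC class II thus changed its sign without that library, and 12 housekeeping genes had a median of 0.04.

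Lists made from other libraries of the series place the 24 genes. Of these, 22 (91.7%) were among the genes that interferon-γ raised in WT BMDMs on day 8, and they made up 1.66% of the 1324 such genes tested (0.140% of all genes were called lower). Interferon-γ acts through another receptor and shares many targets with type I interferon, and the median log2 fold change of that whole list was -0.05. Also 22 of the 24 (91.7%) were among the genes higher in cKO than in WT cells on day 5 of culture, of which they made up 6.88% of 320 tested. Of these 320 genes, 133 (41.6%) had all antibody libraries below those without and 4 (1.25%) had them all above, with a median of -0.66. Over all genes tested these shares were 6.77% and 5.92%. Of the 100 genes lower in cKO than in WT on day 5, none was called, none was apart downward and 23 (23%) were apart upward, with a median of 0.22. For the 132 genes higher in cKO on day 7, 1 was called (32, or 24.2%, apart downward and 4, or 3.03%, upward, median -0.27), and of the 83 lower on day 7 none was called (1, or 1.20%, apart downward and 21, or 25.3%, upward, median 0.25).

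The control antibody arm of cKO cells gives values to set beside these. Each pair of the 3 cKO arms shares libraries with the other pairs, so the comparisons are not independent. Slfn5 had 163 ± 22.8 CPM (SD, n = 3) with control antibody, against 162 ± 43.4 CPM without antibody and 32.6 ± 8.19 CPM with IFNAR1 antibody. Pde7b likewise had 52.1 ± 3.03, 49.8 ± 17.3 and 20.8 ± 3.76 CPM, in the same order of arms. Other genes were between, and Ifi44 had 17 ± 8.51 CPM with control antibody (44.4% of its level without antibody) against 2.20 ± 0.894 CPM with IFNAR1 antibody. Mx1, a GTPase that blocks influenza and related viruses, was picked after its values were seen and had 12.8 ± 1.42 CPM (SD, n = 3) with control antibody, 15.4 ± 1.79 CPM with IFNAR1 antibody and 43.9 ± 22.6 CPM without. In Rsad2 and Ifit1 the means of the control and IFNAR1 antibody arms lay within 1 SD of each other, with 65.7 ± 17.6 and 64.6 ± 13.3 CPM for Rsad2 and 10.4 ± 1.42 and 9.97 ± 2.41 CPM for Ifit1.

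Over the whole list, the log2 fold changes of the 127 interferon list genes had a median of -0.56 for control antibody against none and -0.32 for IFNAR1 against control antibody. Against control antibody, 290 genes were lower with IFNAR1 antibody (1.69%) and 402 higher (2.34%). Control antibody against none gave 137 lower (0.797%) and 114 higher genes (0.663%). All 24 called genes had lower means with IFNAR1 than with control antibody, with a median ratio of 0.34. Of the 24, 17 were among the genes called lower against control antibody, and 0 were among those called lower in control against none. The 24 were chosen in a comparison that shares libraries with both of these. The control arm differed in other ways from the other cKO arms. Its Mki67 was 69.0 ± 26.6 CPM (SD, n = 3) against 364 ± 84.8 CPM without antibody, and the median log2 fold change of its mitosis genes was -1.92 against none. The part of this difference in the interferon genes was not tested.

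WT cells with IFNAR1 antibody show how far the levels went. In cKO cells with IFNAR1 antibody the 24 genes were still above WT cells with the same antibody in 23, with a median ratio of 2.75, and 19 of these had all 3 cKO libraries above all 3 WT libraries. Against WT cells without antibody, 13 were above and 11 below, with a median ratio of 1.04. Slfn5 had 31.4 ± 12.0 CPM (SD, n = 3) in WT cells without antibody and 12.6 ± 4.29 CPM with IFNAR1 antibody, and Stat2 had 31.1 ± 7.39 and 28.0 ± 1.10 CPM. The cKO levels with antibody, 32.6 ± 8.19 CPM for Slfn5 and 41.5 ± 6.29 CPM for Stat2, overlapped with those of WT cells without antibody. Over all 127 interferon list genes, cKO cells with antibody were above WT cells without antibody in 99, with a median ratio of 1.21, and above WT cells with antibody in 113, with a median ratio of 1.67.

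Whether the antibody had another effect in cKO than in WT cells was tested as an interaction. Of 17191 genes, 1 passed (0.00582%), Pxylp1, with a difference of -2.14 ± 0.30 (SE, adjusted p = 0.0402). In WT cells alone no gene was called by edgeR (0%, with 878 at an unadjusted p under 0.05), and DESeq2 called 34. Of the 24 genes, 22 had log2 fold changes below 0 in WT cells as well, with a median of -1.22 over the 24, against -2.26 in cKO cells. The 24 were chosen by their fall in cKO cells, which favours a larger change there, so these medians are not a fair comparison. Over the 127 interferon list genes, which were not chosen in this way, the medians were -0.40 in WT and -0.88 in cKO cells. Oas2 had -3.53 ± 0.51 (SE) in WT and -2.54 ± 0.46 in cKO, and Rtp4 had -4.36 ± 0.76 and -3.58 ± 0.60, so that the estimates lay further below 0 in WT cells. The levels with IFNAR1 antibody were low in WT cells, at 1.07 to 1.94 CPM for Oas2 and 0.23 to 0.32 CPM for Rtp4. In cKO cells with the antibody they were 6.96 to 27.1 CPM and 2.67 to 10.9 CPM. Rnf213 had -0.45 ± 0.27 in WT and -2.12 ± 0.28 in cKO, and Stat2 had -0.15 ± 0.21 and -1.55 ± 0.22. The differences of -1.67 ± 0.38 for Rnf213 and -1.40 ± 0.30 for Stat2 did not pass the test (adjusted p = 0.993 in both). Of the 127 interferon list genes, 99 were below 0 in WT cells, and 19 had an unadjusted p under 0.05 for the difference, as did 731 of all 17191 genes tested.

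**Figure D5:**
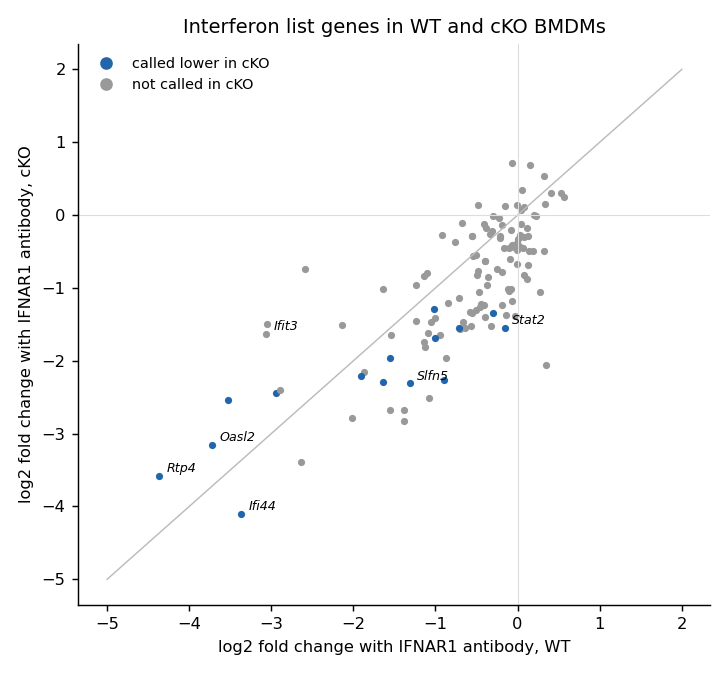
Log2 fold change with IFNAR1 antibody in WT cells (x axis) and in cKO cells (y axis) for the interferon list genes (points), with called genes marked and some named, and the line of equal change. Genes without counts in WT cells lacking antibody are left out. Most points lie below 0 on both axes. Stat2 and Slfn5 lie under the line, while Rtp4, Oasl2 and Ifit3 lie above it.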

How the data were processed

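BMDM RNA was depleted of rRNA and sequenced after NEBNext Ultra II library preparation. Per the methods, reads were trimmed with Cutadapt and aligned with STAR to mm10. The deposited files hold raw counts per gene made by the authors with STAR, with no normalization, for 54146 genes, and the column without regard to strand was used (the strand columns held 55.1% and 54.5% of its total). The annotation release is not given in the sources used here. Unmapped (8.42% to 9.59% in the 6 libraries), multimapping (7.12% to 8.68%), featureless (24.7% to 27.0%) and ambiguous reads (4.04% to 4.27%) were left out of library sizes.

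Groups came from the labels. Genes were filtered with filterByExpr (smallest count 10, total 15), scaled by TMM and fitted in R 4.3.3 with edgeR 4.0.16, which calls on limma 3.58.1. Its two-sided quasi-likelihood test was applied to all 18 libraries of the experiment in one model, with Benjamini-Hochberg adjustment over all genes and calls at an adjusted p under 0.05. The SE is the fold change divided by the root of F. The difference between cKO and WT was tested as an interaction. The method was tested on simulated counts with the same spread for all genes, no pairing of replicates and no library that stood apart. That test therefore does not cover these features of the data. The study's own differential tests used RSEM estimates and SARTools, which were not used here.

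Replicate numbers were taken from the labels. Same-numbered cKO libraries without and with IFNAR1 antibody deviated together over genes (correlations of deviations 0.32, 0.20 and 0.25, against -0.27 to 0.05 for other numbers), so fits with the number as a block are given where they change a call. The block covers WT libraries too, where numbers did not pair in this way (-0.23, 0.63 and 0.17, against -0.70 to 0.61 for other numbers). WT replicates with IFNAR1 antibody differed by more than 2-fold in 472 to 2090 of 9044 genes, and they share the model's estimate of the spread. No pair of replicates agreed within sampling noise (lowest chi-square per degree of freedom 4.73 in these arms).

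Named genes were a gene the study names for this experiment (Ifi204, while another is not reported here), the targeted and receptor genes, the 12 lower and 10 higher called genes with the largest fold changes, an average log2 CPM of 3 or more and arms that did not overlap, the 3 most expressed members and the most changed member of each list, and the 5 genes with the smallest interaction p. The other called genes, such as Irf9, Herc6, Trim30a, Pde7b and Apol9b, fall outside this rule and were chosen after their values were seen, like the other names marked so in the text. The comparison, the lists and the rules were chosen with earlier results of these data known. Alternatives were DESeq2 1.42.0, RLE scaling, no filter, a mean of at least 1 CPM, the strand column, only the groups compared, a replicate block, a log2 fold change of at least 1, and each replicate left out.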

Additional observations from a re-analysis of the deposited data

Results flagged for a closer look

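Pxylp1 was flagged because its change with IFNAR1 antibody differed between cKO and WT cells by the interaction test, with a log2 fold change in cKO minus that in WT of -2.14 (adjusted p = 0.0402). It had 3.25, 4.16 and 3.51 CPM in cKO cells without antibody and 1.2, 1.73 and 1.33 CPM with it, and 2.31 ± 0.26 CPM (SD, n = 3) and 4.01 ± 0.533 CPM in WT cells, so the arms were apart in opposite directions. The call was not made with the replicate block, with no filter on low counts, in the strand column, with only the groups compared. When 1 library of the 4 arms was left out, it was made without WT IFNAR1 antibody replicate 3 and not without any of the others.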

How the results depend on the processing

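With IFNAR1 antibody against none in cKO cells, 24 genes were called lower and 1 higher. DESeq2 gave 72 and 8, no filter 60 and 3, a mean of at least 1 CPM 23 and 2, the strand column 20 and 0, and only the groups compared 0 and 0. Leaving out 1 library gave 0 to 39 lower and 0 to 2 higher genes. With the replicate as a block the counts were 44 and 2, with the block and only the groups compared 1 and 0.

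For control antibody against none in cKO cells (251 genes), DESeq2 gave 667, no filter 561, the replicate block 732, only the groups compared 1693, the block with only these groups 2597, and leaving out 1 library 1 to 385. For IFNAR1 against control antibody (692 genes) the counts were 1266 with DESeq2, 1086 with the block, 207 with only the groups compared, 429 with both, and 77 to 722 with 1 library left out. The difference between cKO and WT (1 gene) gave 3 genes with DESeq2, 0 with no filter, with the block, with the strand column and with only the groups compared, blocked or not, and 0 to 1 with 1 library left out. In WT cells (0 genes) the counts were 34 with DESeq2, 12 with no filter, 5 with the block, 1 with the strand column and 0 to 5 with 1 library left out.

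Alternatives chosen after seeing the data were the replicate block without IFNAR1 antibody replicate 1, with 22 lower and 0 higher genes, and a model of the 9 cKO libraries alone, with 8 lower and 0 higher genes, or 42 and 0 with the block. In this model control antibody against none gave 449 genes (820 with the block), and IFNAR1 against control antibody 1520 with the block.

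Among 65 named genes with 1165 values under the alternatives, the call did not change in 894, was lost in 216 and was gained in 50. Most of the 65 were not called in the model as reported. Only the 25 called genes could lose a call, so all 216 losses fall on these genes. In 5 values, none of a called gene, the sign reversed. Without IFNAR1 antibody replicate 1 these were H3f3a (-0.20), Ifnar2 (-0.025) and Irf8 (-0.015), where the highest value with 1 library left out was 0.56 for H3f3a, 0.23 for Ifnar2 and 0.17 for Irf8. With the block as well they were H3f3a (-0.30) and Ifnar2 (-0.00011). Of 618 list medians, 582 kept their sign. The causes of these differences were not tested. The cKO libraries with IFNAR1 antibody or none had at least 9856082 counts each, so genes at a few CPM rest on few reads. Depth was less even with control antibody in cKO cells, at 34380735, 5295144 and 8985646 counts. With 3 libraries per arm, the number of libraries limits what could be called.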
